A study of Mus musculus with 2 samples.

Results

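Mitotic stromal preadipocytes were taken here as the mesenchymal cells with the most transcripts of 4 genes of cell division, Ccnb1, Cenpf, Cdc20 and Plk1, in primary cultures of mouse inguinal white (iWAT) and interscapular brown (iBAT) adipose tissue. A mesenchymal cell had at least 1 transcript molecule of Pdgfra, the receptor that marks adipose progenitors, and 0 of Epcam, Ptprc, Pecam1 and Sox10, which mark epithelial, immune, endothelial and Schwann cells. Members were chosen by their measured values: in each library, they were the 10% of mesenchymal cells with the highest share of the 4 genes among all unique molecular identifiers of the cell (UMIs, each standing for 1 captured transcript molecule). They numbered 1365 of 13655 mesenchymal cells in iWAT and 2430 of 24305 in iBAT, or 3795 cells of the 58598 barcodes in both libraries. This number follows from the rule, so it does not measure how many cells divided in either depot.

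The cultures came from stromal vascular cells of pooled adipose tissue of wild-type C57BL/6N mice aged 8 to 12 weeks by the labels. They were grown to 80% confluency and then kept for 48 h without an addition or with FGF1, FGF2 or FGF8 at 5.5 nM. The labels state that cells of the 4 treatments were tagged and merged into 1 whole-transcriptome library per depot on the BD Rhapsody microwell system, which gives every captured molecule a cell barcode and a UMI. The study's methods name fewer treatments and another age range than the labels, which were followed here. The files used here hold no tag per cell, so every value pools treated and untreated cells and measures no effect of an FGF. How the treatments are shared between members and other cells is unknown, so their differences cannot be told apart from effects of treatment. With 1 library per depot there was no replicate check, and the depots cannot be told apart from other differences between the 2 libraries.

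Before a cell divides, it copies its DNA in S phase, passes through G2 and then separates the copies in mitosis. Cyclin B1, the product of Ccnb1, switches on the kinase CDK1 at the entry into mitosis, the kinase PLK1 builds the spindle, CENPF sits on the outer kinetochore, and CDC20 directs the anaphase-promoting complex to the proteins whose destruction lets the chromosomes part. Transcripts of these genes start to accumulate in G2 and are lost in the next G1, so a high level marks cells around mitosis and does not show that a cell was dividing when it was captured. Preadipocytes in culture proliferate until they become confluent, and fibroblast growth factors are mitogens for them.

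Cells had to have over 200 and under 7500 detected genes, under 30% mitochondrial UMIs and at least 10000 UMIs, which 24156 iWAT and 28215 iBAT cells did. Of these, 56.5% and 86.1% were mesenchymal by the rule, while 8485 iWAT and 2288 iBAT cells had no Pdgfra UMI. The libraries held 503611913 and 815235820 UMIs. They shared 8 barcodes, of which 0 belonged to members. UMIs were summed over the members and over the other mesenchymal cells of the same library, 12290 in iWAT and 21875 in iBAT, and expressed per 1000000 UMIs of the class (CPM). Ratios are members over other mesenchymal cells unless stated, and their exact 95% intervals cover counting error only, since cells of 1 library are not replicates. No test was made.

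The values that chose the members are given as a description. The score, the UMIs of the 4 genes per 10000 UMIs of a cell, had a median of 10.8 in iWAT members and 0.781 in the other mesenchymal cells, and of 14.8 and 0.717 in iBAT. The last iWAT member scored 8.114 and the first cell outside 8.113. In iBAT these cells scored 10.661 and 10.66. No gap marked the limit, and 505 iWAT and 741 iBAT mesenchymal cells had scores within 10% of it. No UMI of any of the 4 genes was found in 29.4% of the iWAT and 25.6% of the iBAT mesenchymal cells.

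Most members carried the 4 transcripts together. Ccnb1 was at 389 CPM in iWAT members and 44.9 CPM in the other cells, and at 599.5 and 67.3 CPM in iBAT. Cenpf stood at 238 and 37.9 CPM in iWAT and at 279 and 33.5 CPM in iBAT. These are differences the rule itself produced. Cdc20 was at 329 and 52.8 CPM in iWAT, and at 450.2 and 67.8 CPM in iBAT. Plk1 was at 189 and 32.6 CPM in iWAT, and at 206 and 31.9 CPM in iBAT. All 4 genes were detected in 90.6% of the iWAT members and 98.3% of the iBAT members, against 12.2% and 20.5% of the other cells, and 0.293% and 0% of members had UMIs of 1 of the 4 genes only. The median iWAT member held 8 Ccnb1, 4 Cenpf, 7 Cdc20 and 4 Plk1 UMIs, and the median iBAT member 18, 8, 13 and 6.

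The label was checked with 110 mitosis genes that took no part in choosing. Their lists were drawn up with earlier results of these data known, so the check is not fully independent. The median iWAT member had 179 UMIs of these genes per 10000 (quartiles 158 and 201), against 42.7 in the other mesenchymal cells (23.2 and 92.1). The median iBAT member had 212 (189 and 236), against 44.8 (24.2 and 103). Most members stood above the bulk of the other cells, and 94.5% of them in iWAT and 98.2% in iBAT exceeded the 90th percentile of the others. To place them within the cycle, the 10% of the other mesenchymal cells with the highest share of 47 genes of DNA replication served as S phase cells (1229 and 2187 cells). Others in which Mki67, Top2a, Cdk1, Birc5, Ube2c and Ccnb1 all lacked a UMI at a depth of 10000 UMIs served as cells without cycling UMIs (2375 and 4131). The held-out mitosis genes had medians of 90.2 and 99.99 per 10000 UMIs in the S phase cells of iWAT and iBAT and of 20.4 and 22.04 in the cells without cycling UMIs. The other mesenchymal cells thus include cells with raised mitosis or replication transcripts, and ratios of mitosis genes against them are smaller than against cells without cycling UMIs. The low level of the latter is partly set by their choice, since Mki67, Top2a and Ube2c are among the 110 genes.

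**Figure D1:**
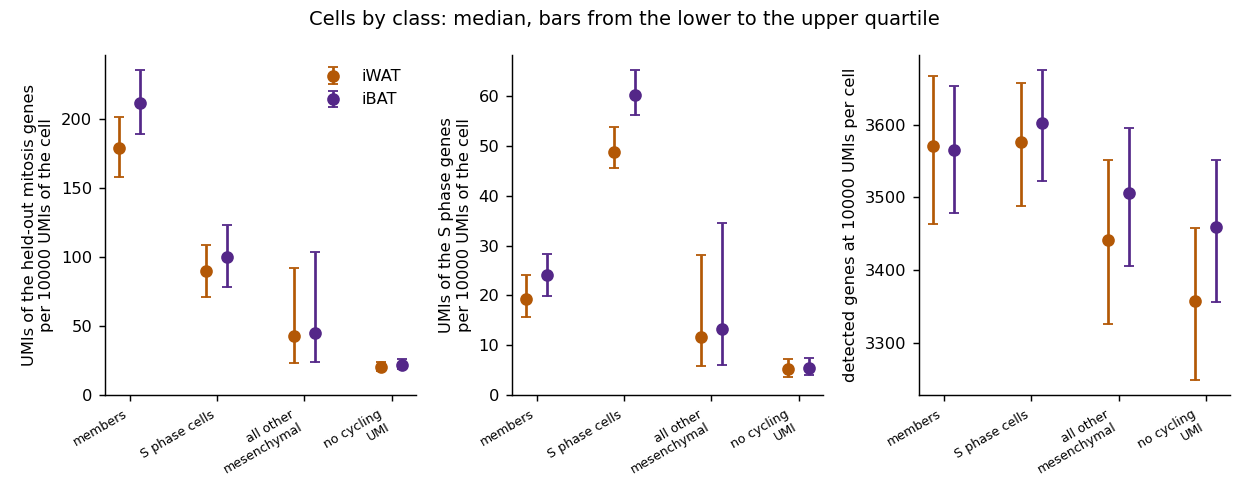
Cells by class in the iWAT (orange) and iBAT (purple) libraries. Points are medians over cells and bars run from the lower to the upper quartile, for the UMIs of the 110 held-out mitosis genes per 10000 UMIs, the UMIs of the 47 S phase genes per 10000 UMIs, and the genes detected after thinning to 10000 UMIs. Members lead in the first panel with medians of 179 and 212, S phase cells lead in the second with 48.8 and 60.2 against 19.3 and 24.04 in members, and in the third members and S phase cells lie above the rest.

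Promoters of genes that peak in G2 and mitosis are known for a pair of sequence elements, the cell cycle homology region (CHR), which is bound by the DREAM and MuvB complexes, and the CCAAT box, which is bound by NF-Y. They were sought in the 250 bases before and 50 bases after the transcript start of every protein-coding gene, on both strands, as TTTGAA or TTCGAA for the CHR and as CCAAT. A CHR and a CCAAT match can share 1 base. A CHR match was found in 18.7% of 21736 promoters, in 49.1% of the held-out mitosis genes and in 10.6% of the S phase list. A CCAAT match was found in 39.9%, 64.5% and 51.1%, and both in 8.24%, 40% and 6.38%. A match is a description of the sequence and not a measured binding site.

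The promoters of the 4 choosing genes serve as examples of where matches were found. They are given 5′ to 3′ from the GRCm39 genome at the GENCODE M39 transcript starts, with the matches in capitals, and cover chr13:100923067-100923366 (minus strand), chr1:189420263-189420562 (minus strand), chr4:118294561-118294860 (minus strand) and chr7:121758396-121758695 (plus strand). Both elements were found in Cenpf, Cdc20 and Plk1, and a CCAAT match alone in Ccnb1. Their arrangement differed: relative to the transcript start, the CHR match begins at 31 in Cenpf and 42 in Plk1, but at -216 in Cdc20.
Ccnb1: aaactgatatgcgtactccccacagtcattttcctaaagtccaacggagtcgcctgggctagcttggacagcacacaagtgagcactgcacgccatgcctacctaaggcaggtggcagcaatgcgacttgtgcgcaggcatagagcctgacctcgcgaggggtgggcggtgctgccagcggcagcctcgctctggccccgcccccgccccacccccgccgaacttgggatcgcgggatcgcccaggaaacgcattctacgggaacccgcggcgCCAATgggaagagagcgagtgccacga
Cenpf: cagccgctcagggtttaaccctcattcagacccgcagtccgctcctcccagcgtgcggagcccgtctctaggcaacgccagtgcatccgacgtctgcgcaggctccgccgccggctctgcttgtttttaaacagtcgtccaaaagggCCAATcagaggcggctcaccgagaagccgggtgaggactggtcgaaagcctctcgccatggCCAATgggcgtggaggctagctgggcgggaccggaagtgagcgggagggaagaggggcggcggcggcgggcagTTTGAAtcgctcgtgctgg
Cdc20: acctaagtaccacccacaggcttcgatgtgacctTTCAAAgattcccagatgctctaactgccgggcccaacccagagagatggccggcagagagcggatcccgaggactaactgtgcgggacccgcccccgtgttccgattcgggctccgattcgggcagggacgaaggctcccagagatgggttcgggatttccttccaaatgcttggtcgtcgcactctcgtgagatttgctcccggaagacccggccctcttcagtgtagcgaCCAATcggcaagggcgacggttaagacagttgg
Plk1: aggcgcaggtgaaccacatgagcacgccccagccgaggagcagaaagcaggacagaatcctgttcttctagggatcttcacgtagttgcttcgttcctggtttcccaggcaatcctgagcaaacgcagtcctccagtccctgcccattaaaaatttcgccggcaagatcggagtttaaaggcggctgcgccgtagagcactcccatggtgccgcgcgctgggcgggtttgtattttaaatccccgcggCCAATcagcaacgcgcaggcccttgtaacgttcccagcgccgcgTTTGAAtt

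Members held more UMIs than the other mesenchymal cells. Their median was 20426 UMIs against 18886 in iWAT and 30969 against 27384 in iBAT. At an equal depth of 10000 UMIs they still had slightly more detected genes, 3571 against 3442 in iWAT and 3565 against 3506 in iBAT. The mitochondrial share was lower, 4.72% against 5.45% and 6.06% against 6.47%. Called doublets were 0.220% of the iWAT members and 1.15% of the other iWAT cells, and 0.206% and 1.248% in iBAT. S phase cells lay between the members and the other cells in depth, with medians of 19864 and 28554 UMIs.

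Markers of mesenchymal cells and of other classes were read in members, although the rule fixed part of both: it required Pdgfra, which is 1 of the mesenchymal markers, and 0 UMIs of Epcam, Ptprc, Pecam1 and Sox10. Of 10 mesenchymal markers, 9 reached 10 CPM in the members of each library, with a summed level of 24609 CPM in iWAT members against 29876 CPM in the other cells, and of 10926 against 14147 CPM in iBAT. The 10 epithelial markers summed to 20.1 CPM in iWAT members and 24.3 CPM in the others, and to 0.714 and 1.05 CPM in iBAT. The immune, endothelial and Schwann lists summed to between 11.5 and 23.2 CPM in members and to between 13.0 and 30.7 CPM in the others, and 0 of their genes reached 10 CPM in members. Mural markers summed to 185 and 75.5 CPM in members against 220.2 and 84.5 CPM in the others. Muscle markers are described with Acta1 below.

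Across all genes at 20 CPM or more in members or in the others of each library, 6278 in all, 267 (4.25%) were at least 1.5-fold higher in the members of both libraries and 32 (0.51%) at least 1.5-fold lower. At 2-fold these numbers were 152 (2.42%) and 3 (0.0478%), and at a ratio of 5 to 4 they were 518 (8.25%) and 172 (2.74%). Over the 6278 genes the median log2 ratio was 0.05 in iWAT and 0.00 in iBAT, and 45.4% of them were higher and 35.6% lower in both libraries by any amount. Of the 110 held-out mitosis genes 107 passed this filter, 97 of them were higher by 1.5-fold and 0 lower, with median log2 ratios of 1.75 and 1.82. Because a gene can pass through its level in members alone, the count was repeated with the minimum set on all mesenchymal cells together. It then gave 76 higher of 85 held-out genes. Of the cell cycle genes named below, Aspm, Gas2l3, Aurka and Cdkn2c were under 20 CPM in the others of at least 1 library and Ccne1 and Ccne2 in the members, so each passed there through the class in which it was high and had to differ.

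The spindle genes, which encode kinesin motors and the proteins that organise microtubules, had the largest median of the 6 held-out mitosis lists. Of 28 genes 27 passed 1.5-fold, against 4.25% of all genes, and the median log2 ratios were 2.06 and 2.17 in iWAT and iBAT. The counts of this and the other mitosis lists use the filter that a gene can pass through members alone. Aspm, whose product focuses the spindle poles, was at 58.8 CPM in iWAT members and 8.23 CPM in the others, and at 73.3 and 8.92 CPM in iBAT. Its log2 ratio was 2.84 (2.74 to 2.93) in iWAT and 3.04 (2.99 to 3.09) in iBAT, within the range of the 4 choosing genes, although its level in the others was under the minimum in both libraries. Thinned to 10000 UMIs, 42.5% of the iWAT members (95% interval 39.9 to 45.2) and 47.9% of the iBAT members had an Aspm UMI, against 62.9% and 81.4% unthinned. In the other cells the thinned shares were 7.08% and 7.52%, and in cells without cycling UMIs 0.842% and 1.14%. Immune cells had 10.7% of 75 cells in iWAT (4.72 to 19.9) and 11.4% of 132 cells in iBAT, and whether they were dividing was not tested. Nusap1, a microtubule-bundling protein, had log2 ratios of 2.62 and 2.86, and Gas2l3, which links actin to microtubules, of 2.60 and 2.97.

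Genes of the other steps of mitosis were also higher in members. Cytokinesis genes had median log2 ratios of 1.77 and 1.82, with 11 of 11 past 1.5-fold, against 4.25% of all genes. Ect2, which activates RhoA at the division plane, was at 103 and 23.7 CPM in iWAT members and others and at 126 and 27.03 CPM in iBAT. Kinetochore genes had medians of 1.75 and 1.78, with 20 of 21 past 1.5-fold, against the same 4.25%. Among them Cenpe, the kinesin that carries chromosomes to the spindle equator, was at 294 and 58.95 CPM in iWAT and at 284 and 52.6 CPM in iBAT. Mitotic kinases and cyclins had medians of 1.70 and 1.83, with 18 of 18 past 1.5-fold, against the same 4.25%. Aurka, the spindle pole kinase, had log2 ratios of 2.48 and 2.78, and Ccna2, the cyclin of S phase and G2, of 2.07 and 2.04. The last 1000 exonic bases of Aurka overlap Fam210b on the other strand over 98.4% of their length, and those of Ccna2 overlap Exosc9 over 64.7%. Whether counting used the strand is not stated in the sources used here, so reads from such pairs cannot be told apart.

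Genes of the anaphase-promoting complex and of chromosome structure differed less as groups. The former had medians of 1.04 and 1.29, with 7 of 12 past 1.5-fold, against 4.25% of all genes. Ube2c, the ubiquitin-conjugating enzyme of the complex, was at 1036 and 185 CPM in iWAT and at 1312 and 190.1 CPM in iBAT. Chromosome compaction and nuclear envelope genes had medians of 1.21 and 1.21, with 14 of 17 past 1.5-fold, against the same 4.25%. Top2a, the topoisomerase that untangles sister DNA, had log2 ratios of 2.01 and 2.02, and Mki67, which coats mitotic chromosomes, of 1.83 and 1.71. Against S phase cells the spindle list was again the highest and the chromosome list the lowest of the 6. Spindle genes had medians of 1.55 and 1.4998 on the log2 scale, whereas chromosome compaction genes had 0.32 and 0.34, and Top2a alone 0.72 and 0.74.

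**Figure D2:**
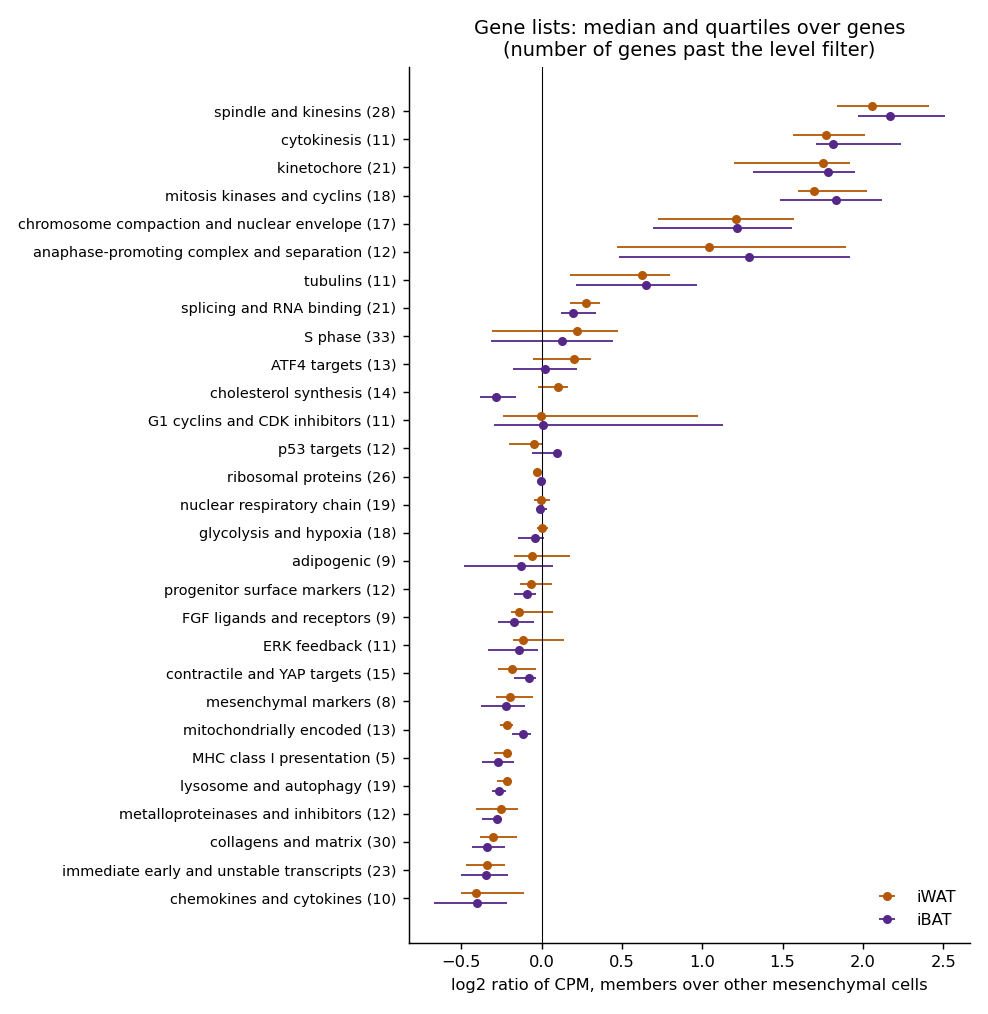
Gene lists in members. Each point is the median log2 ratio of CPM, members over other mesenchymal cells, over the genes of a list that passed the level filter (their number is in brackets), and bars run between the quartiles over genes. The mitosis lists lie between 1.04 and 2.17, tubulins at 0.63 and 0.65, and chemokines and cytokines at -0.41 and -0.41.

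The S phase list was higher in members than in cells without cycling UMIs and lower than in S phase cells, which the same list chose. It summed to 2044 CPM in iWAT members, 5018 CPM in S phase cells and 621 CPM in cells without cycling UMIs, and to 2471, 6134 and 697 CPM in iBAT. Of its 33 genes with a ratio, 5 were at least 1.5-fold higher in members than in the other cells and 2 lower, against 4.25% and 0.51% of all genes. Both lower genes encode cyclin E, which starts DNA replication, and Ccne2 in both libraries and Ccne1 in iBAT passed the level filter only through the other cells. Ccne2 was at 6.25 CPM in iWAT members, 23.2 CPM in the others and 97.2 CPM in S phase cells, and at 5.69, 28.1 and 119 CPM in iBAT. Ccne1 was at 25.6 and 46.6 CPM in iWAT members and others and at 17.7 and 40.5 CPM in iBAT. Tk1, the thymidine kinase, was higher in members than in the others, with log2 ratios of 1.098 and 1.08, but lower than in S phase cells, with -0.21 and -0.18. The last 1000 exonic bases of Ccne2 overlap Ints8 on the other strand over 47.4% of their length, and those of Tk1 overlap Syngr2 over 43.9%.

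The list of G1 cyclins and inhibitors of cyclin-dependent kinases had medians of 0.00 and 0.01 over 11 genes with a ratio. By any amount 5 were higher and 5 lower in both libraries, against 45.4% and 35.6% of all genes. At 1.5-fold 3 were higher and 1 lower, against 4.25% and 0.51% of all genes, so the list was split. Cdkn2d was at 97.2 CPM in iWAT members against 29.6 CPM and at 97.1 against 25.4 CPM in iBAT, with log2 ratios of 1.72 (1.65 to 1.78) and 1.94 (1.90 to 1.98). Cdkn2c, which like Cdkn2d encodes an inhibitor of the G1 kinases CDK4 and CDK6, had log2 ratios of 1.34 and 1.69. Cdkn3, a phosphatase of CDK2, had 1.64 and 1.83, and 49.8% of its last 1000 exonic bases overlap Cnih1 on the other strand. Cdkn1a, the p53 target p21, did not show a common direction, with 319.6 and 354 CPM in iWAT members and others and 312 and 311 CPM in iBAT. Ccnd2, a cyclin of G1, was lower in members, at 549.9 against 864 CPM and 426 against 780.1 CPM. Ccnd1, its close relative, was at 117 and 117 CPM in iWAT members and others and at 391 and 408 CPM in iBAT. The Ccnd1 values are uncertain, because the last 1000 exonic bases of the gene overlap LTO1 on the other strand over their whole length.

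Outside the cell cycle lists, 6026 genes passed the level filter, and 96 of them (1.59%) were at least 1.5-fold higher and 29 (0.481%) at least 1.5-fold lower in the members of both libraries. The lists counted as cell cycle do not hold every gene linked to division, so these counts depend on how complete they are. Haus3 and Fam110a, tied to the spindle below, are among the 96, and the G1 cyclin Ccnd2 is among the 29. At 2-fold there were 17 (0.282%) and 1 (0.0166%), and at a ratio of 5 to 4 there were 317 (5.26%) and 165 (2.74%). Of the 96 genes, 42 were under 20 CPM in the other cells of at least 1 library, and of the 29, 14 were under it in the members of at least 1, so these passed the filter through the class in which they were high. With the minimum set on all mesenchymal cells, 61 of 5817 genes (1.05%) were higher and 29 (0.499%) lower. Between the libraries, 79.3% of the genes 1.5-fold higher in iWAT members were also so in iBAT and 82.8% of those in iBAT were so in iWAT, while for lower genes these shares were 80.6% and 48.3%. No gene was 1.5-fold higher in 1 library and 1.5-fold lower in the other with intervals that excluded an equal level.

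**Figure D3:**
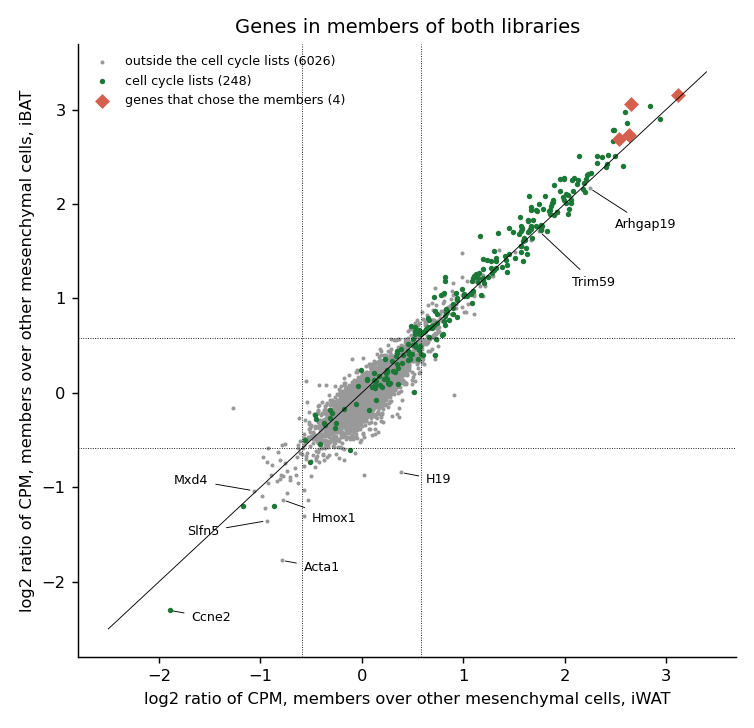
Log2 ratio of CPM in members over the other mesenchymal cells, iWAT (horizontal) against iBAT (vertical), for each of the 6278 genes past the level filter. Grey points are genes outside the cell cycle lists, green points genes of these lists and red diamonds the 4 genes that chose the members, and dotted lines mark 1.5-fold. Most points lie along the diagonal, H19 lies on opposite sides of 0 with 0.38 and -0.84, and Arhgap19 and Trim59 lie among the cell cycle genes.

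Of the 20 highest of these genes, 13 were under 20 CPM in the others of at least 1 library, so they passed the level filter through members and had to differ. The other 7 were Trim59, Zbed3, Ubald2, Haus3, Polh, Tex30 and ENSMUSG00000120992. Arhgap19, an inhibitor of RhoA, was at 25.4 CPM in iWAT members and 5.36 CPM in the others, and at 22.5 and 5.01 CPM in iBAT. Its log2 ratio was 2.25 (2.11 to 2.38) in iWAT and 2.17 (2.08 to 2.25) in iBAT. Arhgap19 is among the 13, as are Hyls1 and Terf1. Hyls1, a protein of centrioles, followed with 2.06 and 2.08, but 57.2% of its exonic bases overlap Pus3 on the other strand. Trim59, a RING-domain protein, was at 129 and 38.3 CPM in iWAT and at 192 and 58.8 CPM in iBAT, with log2 ratios of 1.75 (1.70 to 1.81) and 1.71 (1.68 to 1.74). Terf1, which binds the repeats of telomeres, was at 60.2 and 18.97 CPM in iWAT and at 51.03 and 16.6 CPM in iBAT, with 1.67 and 1.62.

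Others of the 20 highest had log2 ratios between 0.93 and 1.51 in each library. Cntrl, a protein of the mother centriole, had log2 ratios of 1.29 and 1.24, and Haus3, a subunit of the augmin complex of the spindle, of 0.99 and 1.23. Lin54, the DNA-binding subunit of the MuvB complex, was at 40.6 and 17.7 CPM in iWAT members and others and at 39.7 and 19.5 CPM in iBAT. Lmnb2, a lamin of the nuclear envelope, had 1.22 and 1.13, although 80.2% of its last 1000 exonic bases overlap another gene on the other strand. Ddias had 1.12 and 1.19, Polh, a DNA polymerase that bypasses damage, 0.98 and 1.04, and Ccdc77 1.35 and 1.51. The remaining named genes, Mns1, Cep57l1, Tbc1d31, Tex30 and the unnamed gene ENSMUSG00000120992, had log2 ratios from 0.93 for Tex30 in iWAT to 1.249 for Mns1 in iBAT, and 56.8% of the exonic bases of Mns1 overlap Tex9 on the other strand.

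Comparison with S phase cells divided these genes. Of the 96, 34 were also 1.5-fold higher in members than in S phase cells of both libraries. Over all genes outside the lists with the level minimum in members or S phase cells, 43 were so. Ubald2 was at 171 CPM in iWAT members, 76.1 CPM in the others, 65.9 CPM in S phase cells and 61.4 CPM in cells without cycling UMIs. In iBAT it was at 148, 61.8, 53.8 and 50.5 CPM. Zbed3, which encodes a regulator of Wnt signalling that binds axin, was at 146, 59.9, 59.9 and 43.6 CPM in iWAT and at 158, 66.9, 60.6 and 50.3 CPM in iBAT. Both genes were thus highest in members and nearer in S phase cells to the level of cells without cycling UMIs. Uevld followed the same order of classes, with 34.8, 16.2, 15.1 and 11.04 CPM in iWAT and 35.2, 17.03, 14.03 and 12.7 CPM in iBAT. Fam110a, whose product associates with centrosomes and spindles, was at 44.5, 22.5, 25.6 and 19.8 CPM in iWAT and at 49.6, 17.8, 20.5 and 15.5 CPM in iBAT. By contrast, Ddias, Lin54 and Tex30 were no higher in members than in S phase cells in iBAT, with log2 ratios of -0.02, -0.06 and -0.13.

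Pnrc2 and Akirin2 were named after their values were seen, because S phase cells had the lowest level of the 4 classes. Pnrc2, an adaptor of mRNA decapping, was at 174 CPM in iWAT members, 99.05 CPM in the others, 74.5 CPM in S phase cells and 107 CPM in cells without cycling UMIs, and at 202, 103, 70.5 and 113 CPM in iBAT. Akirin2, a nuclear protein that brings proteasomes into the nucleus, was at 158, 85.7, 79.8 and 84.7 CPM in iWAT and at 166, 87.4, 80.6 and 86.6 CPM in iBAT.

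**Figure D4:**
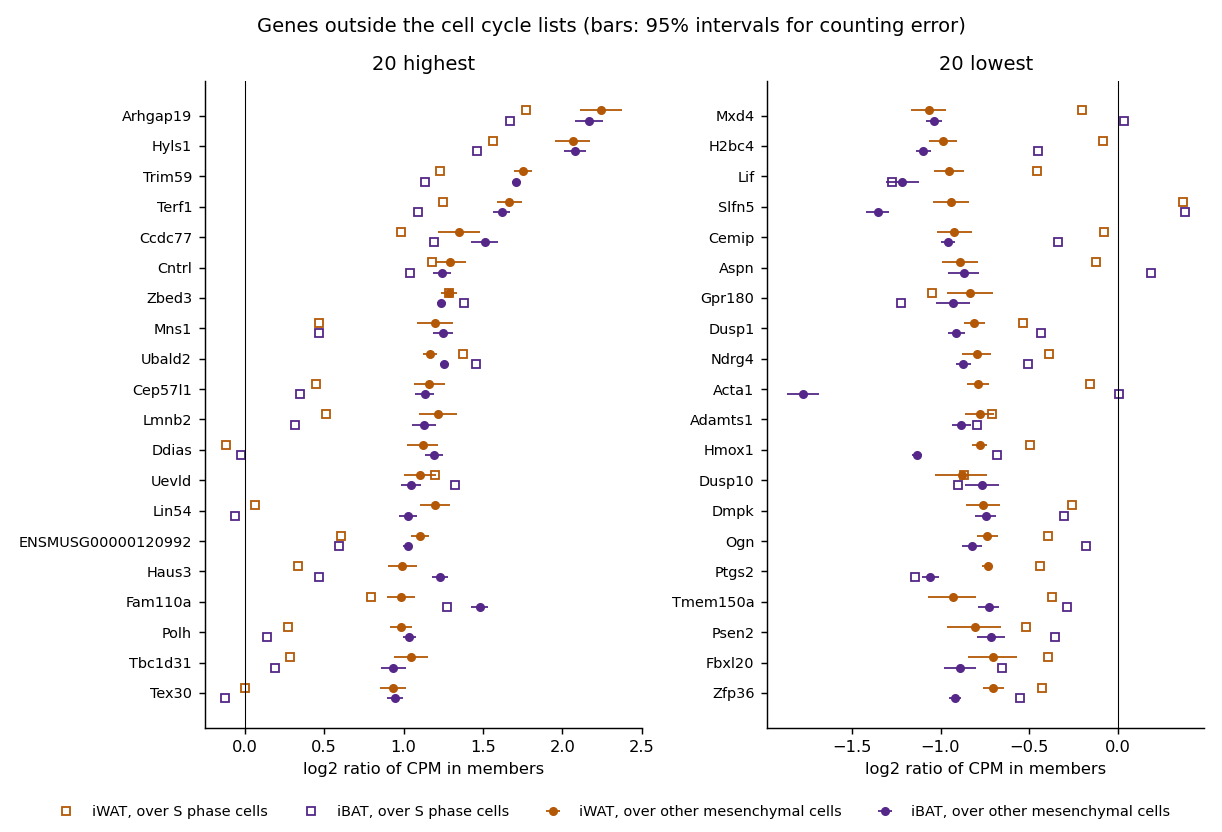
The 20 highest and 20 lowest genes outside the cell cycle lists. Filled circles are log2 ratios of CPM in members over the other mesenchymal cells with exact 95% intervals for counting error, and open squares are log2 ratios over S phase cells, for iWAT (orange) and iBAT (purple). Ubald2, Zbed3 and Uevld keep ratios above 1 over S phase cells, Ddias, Lin54 and Tex30 lie near 0, and on the low side Slfn5 crosses to 0.37 and 0.38 while Gpr180 stays at -1.05 and -1.22.

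Motifs were also counted in the promoters of the genes outside the lists. Of the 91 higher genes with a promoter, 25.3% had a CHR match and 17.6% both elements, against 15.6% and 7.26% over the promoters of all genes that passed the level filter and 18.7% and 8.24% over all promoters. Of the 28 lower genes, 25% had a CHR match and 3.57% both. Of the 20 highest genes 19 had a promoter, and Arhgap19, Ubald2 and Fam110a are the 3 that held both elements. Their promoters, which cover chr19:41790453-41790752 (minus strand), chr11:116324670-116324969 (plus strand) and chr2:151822094-151822393 (minus strand), are given to set beside those of the choosing genes, with the CHR and CCAAT matches in capitals.
Arhgap19: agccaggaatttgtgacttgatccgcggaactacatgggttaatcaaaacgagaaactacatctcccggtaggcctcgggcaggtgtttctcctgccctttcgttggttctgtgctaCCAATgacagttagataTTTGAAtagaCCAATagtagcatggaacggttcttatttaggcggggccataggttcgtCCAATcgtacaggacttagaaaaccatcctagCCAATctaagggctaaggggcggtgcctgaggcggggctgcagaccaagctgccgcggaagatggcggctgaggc
Ubald2: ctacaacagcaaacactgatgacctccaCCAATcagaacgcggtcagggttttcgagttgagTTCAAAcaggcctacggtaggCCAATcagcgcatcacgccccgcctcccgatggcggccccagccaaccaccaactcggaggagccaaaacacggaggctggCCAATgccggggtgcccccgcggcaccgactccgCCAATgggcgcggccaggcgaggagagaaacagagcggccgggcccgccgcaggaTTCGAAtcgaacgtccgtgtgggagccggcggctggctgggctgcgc
Fam110a: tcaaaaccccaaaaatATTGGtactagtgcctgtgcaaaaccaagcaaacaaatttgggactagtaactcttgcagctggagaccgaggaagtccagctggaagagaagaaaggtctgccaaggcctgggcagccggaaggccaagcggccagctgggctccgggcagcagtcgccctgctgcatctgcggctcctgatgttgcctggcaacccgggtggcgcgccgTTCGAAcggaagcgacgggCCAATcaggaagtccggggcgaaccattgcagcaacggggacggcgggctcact

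Tubulins and Stmn1 formed a list whose 11 genes with a ratio were all higher in members of both libraries, 6 of them by 1.5-fold, against 45.4% and 4.25% of all genes, with medians of 0.63 and 0.65; 5 of its genes are also among the cell cycle lists. Tubb4b was at 343 and 154 CPM in iWAT members and others and at 518 and 215 CPM in iBAT. Tuba1c was at 363 and 170.3 CPM and at 513 and 226 CPM. Stmn1, whose product sequesters tubulin, was at 204 and 106 CPM and at 405 and 202 CPM. Calm2, 1 of the 3 calmodulin genes, had log2 ratios of 0.55 and 0.72, while Calm3 had 0.14 and 0.17. All 21 splicing and RNA-binding genes with a ratio were above the others in both libraries, against 45.4% of all genes, with medians of 0.27 and 0.19. Of the 21, 1 passed 1.5-fold, against 4.25% of all genes and 1.59% of those outside the cell cycle lists. It was Nucks1, a chromatin protein, with 0.68 and 0.69. Against S phase cells the medians of this list were 0.03 and 0.01.

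Outside the cell cycle lists, Mxd4 came first among the genes that were lower in members. Mxd4, which competes with MYC for its partner MAX, was at 31.1 CPM in iWAT members and 65.2 CPM in the others, and at 50.2 and 103 CPM in iBAT. Its log2 ratio was -1.07 (-1.17 to -0.97) in iWAT and -1.04 (-1.08 to -0.99) in iBAT. It was the gene outside the lists that was 2-fold lower in both libraries. S phase cells had 35.8 and 48.97 CPM and cells without cycling UMIs 95.5 and 161 CPM, so the gene was low in both cycling classes. The last 1000 exonic bases of Mxd4 overlap its antisense transcript over 50.9% of their length. Slfn5, a member of the Schlafen family, was lower than in the other cells with -0.94 and -1.35 but higher than in S phase cells with 0.37 and 0.38. The histone gene H2bc4 had -0.98 and -1.097, and Cemip, which degrades hyaluronan, was at 29.7 and 56.3 CPM in iWAT and at 77.96 and 151 CPM in iBAT. Of the 29 lower genes, 14 passed the level filter in at least 1 library through the other cells and had to differ there. Genes given by ratio alone, such as H2bc4, Dusp10, Aspn and Ogn, may be among them.

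Transcripts of the immediate early kind, which are short-lived and answer growth factors and stress within minutes, had medians of -0.34 and -0.35, against 0.05 and 0.00 over all genes. Of 23 genes with a ratio, 19 were lower in both libraries and 1 higher, against 35.6% lower and 45.4% higher of all genes. At 1.5-fold 1 of the 23 was lower, Zfp36, against 0.51% of all genes. Zfp36, whose product marks such transcripts for decay, was at 85.1 CPM in iWAT members and 139 CPM in the others, and at 101 and 190.3 CPM in iBAT. Fos was at 265 and 393 CPM in iWAT and at 57.98 and 119 CPM in iBAT. Among genes on no list, Dusp1, a phosphatase of MAP kinases, was at 89.6 and 157 CPM and at 47.4 and 89.2 CPM, and the related Dusp10 had log2 ratios of -0.88 and -0.77. Both were lower in members than in S phase cells too, with -0.54 and -0.43 for Dusp1 and -0.87 and -0.90 for Dusp10.

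Of 10 chemokine and cytokine genes with a ratio 9 were lower in both libraries, against 35.6% of all genes. The medians were -0.41 and -0.41. At 1.5-fold 1 of the 10 was lower in both, Lif, against 0.51% of all genes. Lif was under the level minimum in iBAT members. Lif, a cytokine of the IL-6 family, was at 41.1 CPM in iWAT members and 79.4 CPM in the others, and at 12.8 and 29.8 CPM in iBAT. After thinning, 26.01% of the iWAT members (23.7 to 28.4) and 37.7% of the others (36.9 to 38.6) had a Lif UMI, and in iBAT 9.05% (7.94 to 10.3) and 15.4% did. Of the S phase cells 27.7% (25.3 to 30.3) had one in iWAT, close to members, and 15.1% in iBAT, close to the others. Unthinned, the shares were 39.05% and 51.5% in iWAT and 19.96% and 28.1% in iBAT. Immune cells, at median depths of 13198 and 20925 UMIs, had thinned shares of 10.7% of 75 iWAT cells and 0% of 132 iBAT cells (upper bound 2.76%), below those of the members. Il11, another cytokine of that family, was at 35.9 and 53.3 CPM in iWAT and at 33.7 and 83.1 CPM in iBAT. Ptgs2, the inducible cyclooxygenase, which is on no list, was at 326 and 543 CPM in iWAT and at 48.7 and 101 CPM in iBAT.

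Genes of the matrix and of the lysosome were lower by small amounts. Of 30 collagen and matrix genes 26 were lower in both libraries, against 35.6% of all genes, with medians of -0.30 and -0.34. At 1.5-fold 0 of them were lower, near the 0.51% of all genes. Col1a1 was at 14294 and 17383 CPM in iWAT members and others and at 4749 and 6463 CPM in iBAT. Against S phase cells the medians of the list were -0.07 and -0.10, and Col1a1 had log2 ratios of -0.07 and -0.01. All 19 lysosomal and autophagy genes with a ratio were lower in both libraries, against 35.6% of all genes, with medians of -0.22 and -0.26. At 1.5-fold 0 of the 19 were lower, again near the share of all genes. Against S phase cells the medians were -0.06 and -0.12. Adamts1, a secreted protease of the matrix, was lower than in both classes, with -0.78 and -0.88 against the other cells and -0.71 and -0.79 against S phase cells. Hmox1, the stress-induced haem oxygenase, was at 167 and 287 CPM in iWAT and at 125 and 274 CPM in iBAT. Aspn and Ogn, small proteoglycans, had log2 ratios of -0.89 and -0.87 and of -0.74 and -0.82. The last 1000 exonic bases of Ogn lie wholly within Cenpp, a kinetochore gene on the other strand.

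Acta1, the actin of skeletal muscle, was at 83.1 and 143 CPM in iWAT members and others. In iBAT it was at 13.6 and 46.4 CPM, which gave it a log2 ratio of -1.77 (-1.87 to -1.68), and it passed the level filter there only through the other cells. In iBAT the 10 muscle markers, Acta1 included, summed to 26.0 CPM in members and 87.7 CPM in the other cells, and in iWAT to 97.5 and 159 CPM. The part of muscle cells in the low Acta1 of members was not tested. S phase cells of iBAT had the level of members, 13.5 CPM.

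The added factors act through the FGF pathway. Of 9 of its ligands, receptors and co-receptors with a ratio 0 passed 1.5-fold. This is near the shares of genes outside the cell cycle lists, 1.59% higher and 0.481% lower. By any amount 6 were lower and 1 higher in both libraries, against 35.6% and 45.4% of all genes. The medians were -0.14 and -0.17. Fgf2 was at 271 and 299 CPM in iWAT members and others and at 154 and 195 CPM in iBAT, but 51.2% of its last 1000 exonic bases overlap Nudt6 on the other strand. Fgfr1, a main receptor of mesenchymal cells, was at 267 and 295 CPM and at 258 and 287 CPM. After thinning, 82.0% of the iWAT members (79.8 to 84.0) and 83.3% of the others had an Fgf2 UMI, against 16% of immune cells, and in iBAT 62.5% and 65.6% did, against 9.09%. Of 11 genes on a list of ERK feedback and target genes 7 were lower and 3 higher in both libraries, against 35.6% and 45.4% of all genes. At 1.5-fold 0 passed, near the shares of genes outside the cell cycle lists, and the medians were -0.12 and -0.14. Etv5, a transcription factor on this list, was 1 of the 3 higher genes, with 39.99 and 26.9 CPM in iWAT and 34.1 and 23.03 CPM in iBAT.

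Pdgfra, which took part in the choice of mesenchymal cells, was at 158 and 139 CPM in iWAT members and others and at 292 and 286 CPM in iBAT. Of 12 progenitor surface markers 0 passed 1.5-fold, a count near the shares of all genes, and 6 were lower and 2 higher in both libraries, against 35.6% and 45.4%, with medians of -0.07 and -0.09. Of 9 adipogenic genes 0 passed in both libraries, again near the shares of all genes, 5 were lower and 3 higher, against 35.6% and 45.4% of all genes, with medians of -0.06 and -0.13, and Fabp4, the fatty acid carrier of adipocytes, was at 34.3 and 45.8 CPM in iWAT and at 77.5 and 114 CPM in iBAT. Ribosomal protein genes, with medians of -0.03 and 0.00, nuclear respiratory chain genes, with -0.01 and -0.01, and glycolytic genes, with 0.00 and -0.04, lay at about the level of all genes. All 13 mitochondrially encoded genes were lower in both libraries, against 35.6% of all genes, with medians of -0.21 and -0.12, beside the lower mitochondrial share given above. Of the other lists with at least 10 genes with a ratio, cholesterol synthesis had medians of 0.10 and -0.28, targets of ATF4 0.20 and 0.02, antioxidant genes -0.09 and -0.14, targets of p53 -0.05 and 0.09, chaperones 0.03 and -0.02, Wnt and TGF-beta genes -0.16 and -0.24, metalloproteinases -0.25 and -0.28, contractile genes and YAP targets -0.18 and -0.08, actin cytoskeleton genes -0.07 and -0.02 and the IGF axis -0.02 and -0.13.

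Levels were then followed along the score. Mesenchymal cells were ordered by it, those without a UMI of the 4 genes were set apart as bin 0, and bins 4 to 10 each hold 10% of the mesenchymal cells, up to bin 10, the members. The incomplete bin 3 holds the remaining 84 iWAT and 1082 iBAT cells. Held-out mitosis genes increased from 2750 CPM in iWAT bin 0 to 8121 CPM in bin 7 and 18109 CPM in members, and in iBAT from 2657 to 9732 and 21373 CPM. S phase genes were highest in bin 7, at 2704 and 3881 CPM, and lower in members, at 2044 and 2471 CPM. Mxd4 was at 90.8 CPM in bin 0 and at 38.2 CPM in bin 8 of iWAT, and at 158 and 44.9 CPM in iBAT. Pnrc2 was lowest in bin 7 with 83.2 and 83.02 CPM and highest in members. Ptgs2 stood at 569 CPM in bin 8 of iWAT and at 326 CPM in members, and at 110 and 48.7 CPM in iBAT. Ptgs2 was thus lower in members than in bin 8, whereas Mxd4 was already low in bin 8.

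**Figure D5:**
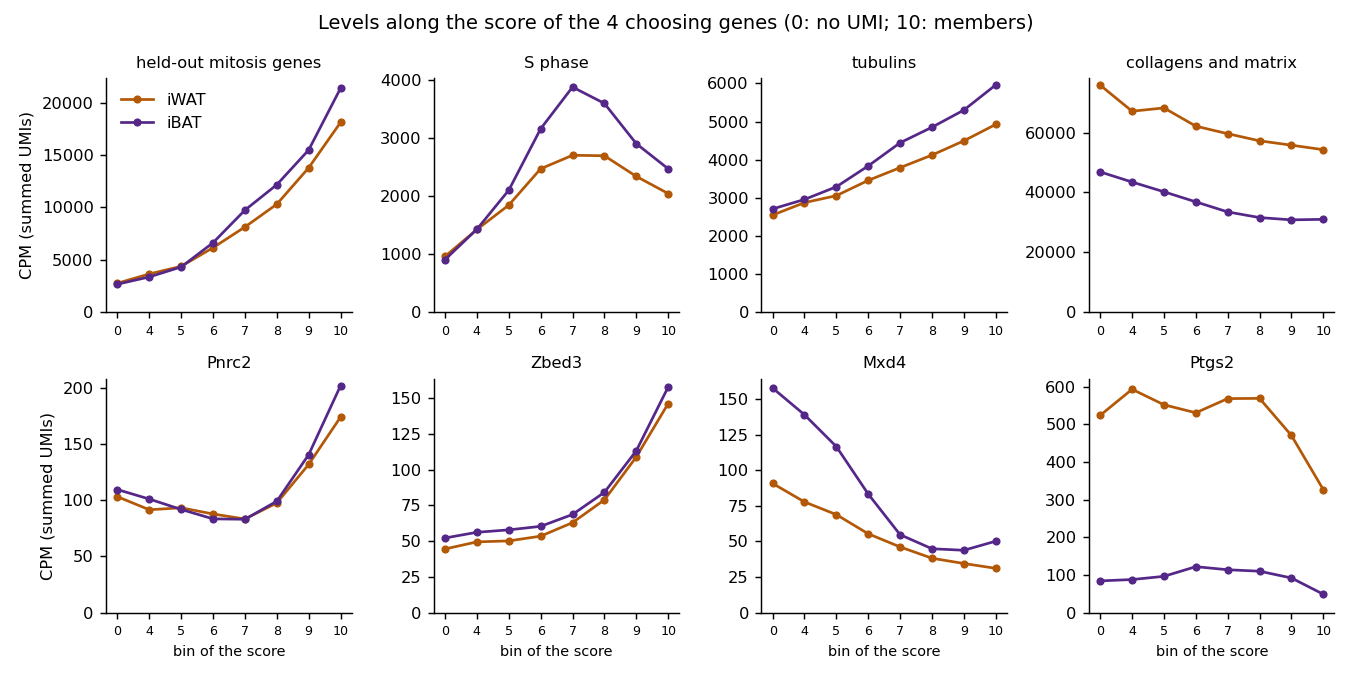
CPM of gene lists and single genes along the score of the 4 choosing genes in iWAT (orange) and iBAT (purple). Bin 0 holds mesenchymal cells without a UMI of the 4 genes and bins 4 to 10 hold 10% of all mesenchymal cells each, of which bin 10 is the members, while the incomplete bin 3 is not drawn. Held-out mitosis genes are highest in members, S phase genes in bin 7, Pnrc2 is lowest in bin 7, and Ptgs2 is lower in bins 9 and 10 than in bin 8.

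Members also varied among themselves. Split by score into 3 groups of equal size, the held-out mitosis genes were at 16392, 17842 and 20216 CPM in iWAT and at 19150, 21028 and 24009 CPM in iBAT. The spindle list went from 4245 to 5607 CPM in iWAT and from 4941 to 6862 CPM in iBAT between the lowest and the highest group. Pnrc2 went from 159 to 199 CPM and from 179.8 to 233 CPM. The level of both thus increased with the score among members as well. Ptgs2 went from 385 to 266 CPM in iWAT and from 69.1 to 30.5 CPM in iBAT. Ccnd1 was at 452, 420.1 and 297 CPM in the 3 groups of iBAT and at 119.9, 117 and 113 CPM in those of iWAT. Cemip went in opposite directions, with 36.5, 33.3 and 18.8 CPM in iWAT and 61.6, 80.5 and 92.1 CPM in iBAT. Collagen and matrix genes went from 53183 to 55175 CPM and from 29369 to 33045 CPM, so the lower matrix level of members was not deepest at the highest scores.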

How the data were processed

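Unique molecular identifiers per gene and cell barcode were measured in 2 libraries, 1 per depot. The authors counted them with the data pipeline of a commercial genomics platform, per the paper's methods, and deposited them as raw counts. The submitters' processing notes name mm39, and Seurat 5.0.0 served for the study's later steps. The annotation and the use of strand in counting are not given in the sources used here. Everything else was computed from the deposited counts: the cell filters, the choice of members, sums per class as UMIs per 1000000, log2 ratios, exact Clopper-Pearson 95% intervals and shares of cells after thinning each cell to 10000 UMIs. Intervals cover counting error only. A gene had a ratio where it had at least 20 CPM in members or others of each library, and counts of genes use a ratio of at least 1.5-fold in both libraries. Doublets were called with the Scrublet of scanpy 1.11.5, whose own threshold called 0 iBAT cells, so the iWAT threshold of 0.423 was used for both, a choice made after seeing this. They were kept, and left out in an alternative. Totals were 503611913 UMIs in 29962 iWAT and 815235820 UMIs in 28636 iBAT barcodes.

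The members and the gene lists were chosen with earlier results of these data known. The cell cycle lists are the 4 choosing genes, 6 lists of mitosis with 110 genes, the S phase list and 205 other cell cycle genes. The text names, besides the choosing genes, at most 4 genes per list by the smaller of the 2 libraries' log2 ratios, 5 genes by name (Fgf2, Fgfr1, Pdgfra, Cdkn1a, Ccnd1), and the 20 highest and 20 lowest genes outside the cell cycle lists by the same measure, leaving out symbols of the form Gm plus digits or ending in Rik. Pnrc2, Akirin2, H19, Gas1 and Tnfsf15 lie outside this rule and were named after their values were seen. Immune cells used for background had at least 1 UMI each of Ptprc and Tyrobp and 0 of Pdgfra. Scripts were tested on simulated counts. Promoters and overlaps of exons came from the GRCm39 genome with GENCODE M39. For genes named by the rule, an overlap is given where it covers over 40% of the exonic bases or of the last 1000. Overlaps were not looked up for Pnrc2, Akirin2, H19, Gas1 and Tnfsf15, and ENSMUSG00000120992 had no coordinates under that name. Python 3.11.15 with numpy 2.4.6, scipy 1.17.1 and pandas 2.3.3 was used. Treatments were not compared, because no file used here assigns a cell to 1 of them.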

Additional observations from a re-analysis of the deposited data

Results flagged for a closer look

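H19, an imprinted long noncoding RNA, differed from the other mesenchymal cells in opposite directions in the libraries. In iWAT it was at 24.4 CPM in members and 18.7 CPM in the others, a log2 ratio of 0.38 (95% counting interval 0.27 to 0.50), and in iBAT at 22.1 and 39.7 CPM, a log2 ratio of -0.84 (-0.91 to -0.77). Its level was 9.597 CPM among iWAT cells without cycling UMIs and 69.7 CPM among those of iBAT, a wider gap between the libraries than in members. It was the 1 gene of 6278 with opposite directions at a ratio of 5 to 4 or more in each library and intervals that excluded an equal level in both, and the difference between the libraries was not tested.

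The limit of 7500 detected genes removed 356 mesenchymal cells of iBAT and 1 of iWAT. Of the iBAT cells, 80, or 22.5% (exact 95% interval 18.2 to 27.2%), had a score at or above that of the lowest iBAT member, against the 10% that the rule sets among retained cells. In iWAT the number was 0 of 1. These cells enter no comparison above.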

How the results depend on the processing

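No paired analysis was possible because each depot has 1 library, and for the same reason no replicate could be left out. Over 18 alternatives that give ratios, 2934 of 2952 values of the 82 named genes past 1.5-fold kept their direction. These genes include the choosing genes, whose direction the main rule sets. Others were named because their ratios were the most extreme, outside the cell cycle lists or within a list. Such genes were unlikely to change direction, so this tally is a weak check. The 97 held-out mitosis genes past 1.5-fold stayed within 1.5 times that count under every alternative run, with 70 against S phase cells as the lowest and 104 at a ratio of 5 to 4 as the highest. Aurka, Ube2c and Nusap1 are among them but chose the members in the alternative with other choosing genes. Mki67, Top2a and Ube2c took part in choosing the cells without cycling UMIs. In these settings not all of the genes were held out. On the other lists, 2 of 391 genes were higher and 7 lower, against 1.59% and 0.481% of all genes outside the cell cycle lists. These counts and those outside the cell cycle lists (96 higher, 29 lower) depended mainly on the comparison cells, the threshold and the level filter. Against S phase cells 43 and 85 genes outside the lists passed, with 1 and 4 on the other lists, and 34 of the 96 and 7 of the 29 were shared. Against cells without cycling UMIs the counts were 343, 160, 19 and 38, and all of the 96 and of the 29 were shared. At a ratio of 5 to 4 they were 317, 165, 15 and 44, and at 2-fold 17, 1, 0 and 0. A filter of 50 CPM left 34 and 14, with 4 lower on the other lists, and without a filter beyond 1 UMI 717 and 859 passed, with 19 lower on the other lists. The number of genes with a ratio changes with the comparison cells and the filter, so these counts are not shares of 1 total. Requiring 3 Pdgfra UMIs gave 11 lower genes on the other lists, and a total without cell cycle and mitochondrial genes gave 4 higher. Alternatives chosen after seeing the data took members on a random 50% of the UMIs and measured them on the rest (93 higher, 26 lower), or used Col3a1 in place of Pdgfra (98 and 30).

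The ratio of median UMIs, 1.08 in iWAT and 1.13 in iBAT, was 1.0496 and 1.11 with 5% of cells as members, 1.05 and 1.11 with 20%, 1.04 and 1.09 with a minimum of 20000 UMIs, 1.12 and 1.19 with Ccnb2, Aurka, Ube2c and Nusap1 as choosing genes, 1.03 and 1.08 against S phase cells, and 1.17 in iBAT against cells without cycling UMIs. Thinned to 5000 UMIs, 26.1% and 31.1% of members had an Aspm UMI and 16.1% and 5.31% a Lif UMI, and not thinned 62.9% and 81.4%, and 39.05% and 19.96%. Against S phase cells the log2 ratio changed sign for Ddias (-0.12 in iWAT, -0.021 in iBAT), Slfn5 (0.37 and 0.38), Tk1 (-0.21 and -0.18), Blm (-0.50 and -0.67) and Tgfb2 (0.10 and 0.0016), and in iBAT for Lin54 (-0.059), Tex30 (-0.13), Mxd4 (0.035), Aspn (0.19) and Acta1 (0.0042). Against cells without cycling UMIs it changed sign for Ccne2 (0.45 and 0.23) and, in iWAT, for Ccne1 (0.0050). The comparison cells differ by construction in these settings, and the cause of each change was not tested.

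Depth limits the shares of cells, since 10000 UMIs miss transcripts that deeper reads find. The members chosen by the other 4 genes held 66.5% of the iWAT and 77.2% of the iBAT members.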

Other observations

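A few genes outside the cell cycle lists differed from the other mesenchymal cells in 1 library and little in the other. They were picked after their values were seen, and the difference was not tested. Gas1, a membrane protein first found in growth-arrested fibroblasts, was at 64.6 CPM in iWAT members and 34.3 CPM in the others, and at 181 and 183 CPM in iBAT. Tnfsf15, a cytokine of the TNF family, was at 32.1 and 77.2 CPM in iWAT and at 20.8 and 23.3 CPM in iBAT.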
